A study of Sus scrofa with 36 samples.

Results

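The interferon-stimulated genes described here were ISG15, MX1, MX2, OAS1, IFIT1, IFIT2, IFIT3, RSAD2 and IRF7, measured in the thyroid gland of 36 pigs. Probes were taken where the array's gene name was that of a member, in upper case, or where the array's description gave it in round brackets. This rule found 26 probes for 8 of the 9 genes, out of 60305 probes and 13266 named genes on the array. ISG15 and OAS1 had 2 probes each, MX2, IFIT1, IFIT2, IFIT3 and IRF7 had 3 each, and MX1 had 7. All 26 were well above background on all 36 arrays, so that no member that was found was lost to the filter on low signal. RSAD2 was not on the array under that name. Its 3 probes were listed under its older name IRG6 or under a sequence number, and were found through their accession. Its values are given beside the others but are not in the counts of 8 genes. For each gene the probe with the highest mean signal is called the lead probe.

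The pigs were castrated males raised in Guadeloupe, of the Creole breed (CR), the Large White breed (LW) and their cross (F1), with 12 pigs of each. In each breed 6 pigs were labelled 24 °C and were slaughtered before the temperature was raised, and 6 were labelled 30 °C, for which the protocol states 5 days at 32 °C. Temperature, day of slaughter and the small difference in age therefore cannot be told apart. The study kept pigs of each breed in a few sets of littermates that the labels do not give, so breed and family cannot be told apart either, and p-values measure the spread between these pigs. Each pig had 1 Cy3-labelled array, and values are log2 of the quantile-normalised median intensity. Each array had 72.8% to 80.3% of its probes above background by the scanner's test, 0 spots were saturated, and the arrays lay on 5 slides. Of the markers of thyroid follicular cells, 6 were tested and were well above background on all 36 arrays, among them TG and SLC5A5; SLC26A4 and DIO1 were not well above background on any array. RNA came from bulk thyroid tissue, in which fewer cells of a type and less RNA per cell cannot be told apart.

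Interferons are secreted when a cell senses viral nucleic acid. Type I and type III interferons bind receptors that act through the kinases JAK1 and TYK2 on transcription factors, which switch on a large set of genes in nearly every cell type. ISG15 is a ubiquitin-like protein that is attached to other proteins, MX1 and MX2 are GTPases that block incoming viruses, OAS1 makes the messenger that activates RNase L, the IFIT proteins bind foreign RNA, RSAD2 (viperin) is an enzyme that makes a chain-terminating nucleotide, and IRF7 is the factor that amplifies interferon production. Thyroid epithelium responds to interferon, and thyroid disease is a known side effect of interferon therapy.

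The probes are 60 bases long, and the sequences on which the results below turn are shown, 5′ to 3′, as the array files give them. The pair for ISG15 overlapped by 55 positions with 54 equal bases, the difference being T44C counted from 1 at the 5′ end of the lead probe, in capitals. The pairs shown for IFIT2, IFIT3, MX1 and OAS1 did not overlap, so each pair reads its gene at separate places. Where the probes lie in the pig genome was not analysed here.
ISG15 lead probe: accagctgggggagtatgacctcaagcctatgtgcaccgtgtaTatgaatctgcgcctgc
ISG15 second probe: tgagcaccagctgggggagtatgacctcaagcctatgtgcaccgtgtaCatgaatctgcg
IFIT2 second probe: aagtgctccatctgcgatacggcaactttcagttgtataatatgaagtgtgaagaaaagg
IFIT2 probe of the lowest signal: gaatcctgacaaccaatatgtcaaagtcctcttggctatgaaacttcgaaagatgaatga
IFIT3 probe of the lowest signal: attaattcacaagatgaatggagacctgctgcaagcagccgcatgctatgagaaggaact
IFIT3 second probe: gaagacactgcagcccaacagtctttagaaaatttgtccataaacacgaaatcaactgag
MX1 probe of the sixth highest signal: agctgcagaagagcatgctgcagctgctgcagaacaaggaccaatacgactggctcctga
MX1 probe of the lowest signal: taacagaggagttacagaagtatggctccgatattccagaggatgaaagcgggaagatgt
OAS1 lead probe: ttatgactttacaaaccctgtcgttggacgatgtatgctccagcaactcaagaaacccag
OAS1 second probe: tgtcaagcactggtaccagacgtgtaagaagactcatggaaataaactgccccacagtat

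Probes of a gene followed each other over the 36 pigs to different degrees. The Pearson correlation between probes was 0.997 for ISG15, 0.968 to 0.999 for the MX1 probes, 0.925 for OAS1, 0.886 to 0.978 for IFIT1, 0.912 to 0.958 for IFIT2 and 0.859 to 0.915 for IFIT3. For MX2 it was 0.644 to 0.872, and for IRF7 0.351 to 0.755. Among the MX1 probes, 3 share between 45 and 57 bases with each other, so they are not separate readings. The IRF7 probe with the lowest signal lay between 5.63 and 6.13 in all pigs and had an SD of 0.13, and MX2 and IRF7 values are therefore less certain than those of the other members.

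The first question was whether heat changed these genes. No member did so by the test at 30 °C, in any breed or over all breeds. ISG15 had a lowest, median and highest level of 11.99, 12.59 and 13.61 in the 18 pigs at 24 °C and of 11.43, 12.69 and 14.84 in the 18 pigs at 30 °C. The medians lay close together, while the lowest and the highest pig were both at 30 °C. The difference was 0.03 ± 0.26 (SE; limma, adjusted p = 0.99), with a 95% confidence interval from -0.49 to 0.55. For MX1 the levels were 11.40, 13.99 and 15.12 at 24 °C and 10.93, 13.86 and 15.75 at 30 °C. MX1 differed by -0.02 ± 0.35 (limma, adjusted p = 0.995). OAS1 had levels of 9.24, 10.21 and 11.39 at 24 °C and of 6.48, 10.50 and 12.09 at 30 °C, with a difference of -0.05 ± 0.34 (limma, adjusted p = 0.987). Of the 8 lead probes 5 were higher and 3 lower at 30 °C, between -0.17 for IFIT2 and 0.11 for IFIT1, and their median was 0.04, beside 0.009 over all tested probes. With limma, 0 of 26 member probes were called at an adjusted p under 0.05, and 1 had an unadjusted p under 0.05; over the 46222 tested probes 545 were called, which is 1.18%. The probe with that unadjusted p was the second IFIT2 probe, at -0.28 ± 0.13 (limma, adjusted p = 0.446). The widest 95% intervals were those of MX1, from -0.72 to 0.68, and of OAS1, from -0.73 to 0.63. Differences inside them are not excluded by these arrays. RSAD2 differed by 0.19 ± 0.24 (limma, adjusted p = 0.9).

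**Figure D1:**
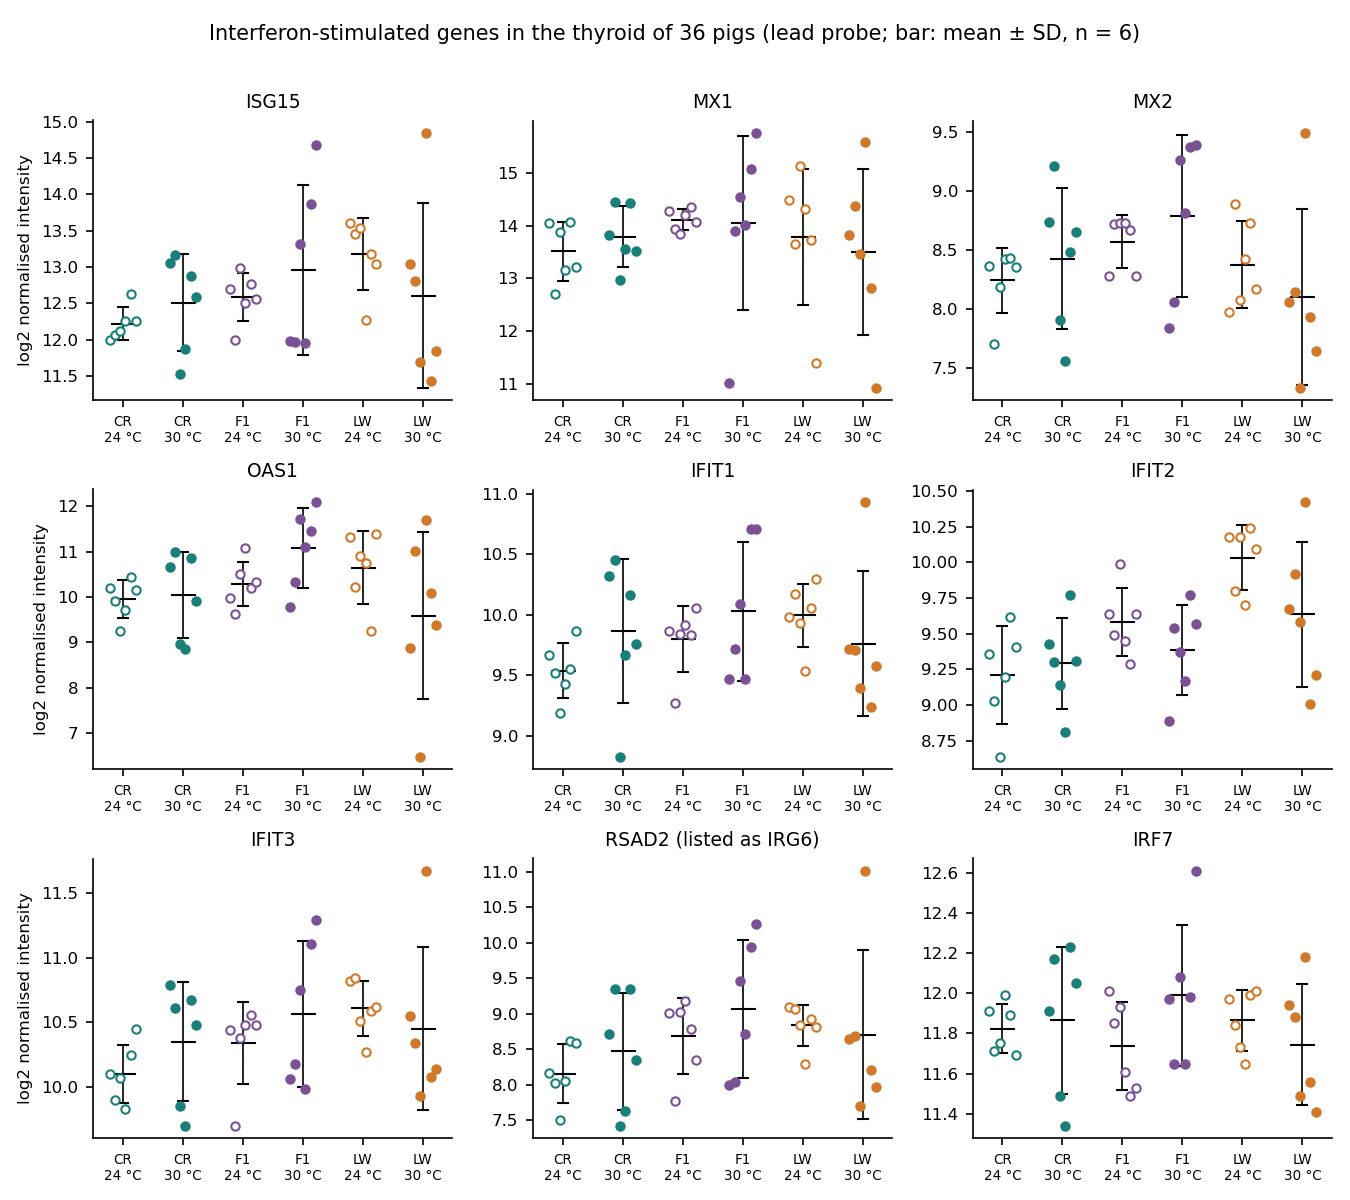
Log2 normalised intensity of the lead probe of each gene (vertical axis) in every pig, by breed and temperature on the horizontal axis; open points are pigs at 24 °C, filled points pigs at 30 °C, and bars are the mean ± SD of 6 pigs. The points at 30 °C lie farther apart than those at 24 °C for most genes, as for ISG15, where they run from 11.43 to 14.84 against 11.99 to 13.61, and 3 pigs lie far below the others for MX1.

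Within each breed the signs differed but no call was made. In CR all 8 lead probes were higher at 30 °C, by 0.04 to 0.33 with a median of 0.22. In F1, 6 were higher and 2 lower, between -0.19 for IFIT2 and 0.80 for OAS1, with a median of 0.23. In LW all 8 were lower, between -1.05 for OAS1 and -0.12 for IRF7, with a median of -0.28. The medians over all tested probes were 0.008, 0.007 and 0.009. With limma, 0 of the 8 lead probes were called in CR, in F1 and in LW, and unadjusted p-values under 0.05 numbered 0, 0 and 1, the last being IFIT2 in LW at -0.40 ± 0.19 (limma, adjusted p = 1). Over all tested probes 0.387% were called in CR, 0.383% in F1 and 0% in LW. The test of whether the change depended on breed called 0 member probes, 0 of them with an unadjusted p under 0.05, and 0% of all probes, of which 2157 had an unadjusted p under 0.05. The change in LW minus that in CR was -0.87 for ISG15 (limma, adjusted p = 1) and -1.15 for OAS1 (limma, adjusted p = 1). Of 6 T-cell markers 5 were higher at 30 °C in CR, with a median of 0.35, 2 were higher and 4 lower in F1, with a median of -0.06, and all 6 were lower in LW, with a median of -0.36. With limma 0 of them were called, 3, 0 and 3 had an unadjusted p under 0.05 in CR, F1 and LW, and their part in the members' values was not tested. Single pigs set much of the values in LW. The OAS1 change in LW was -0.43 without LW 30 °C replicate 3 and -1.47 without LW 30 °C replicate 4, and the ISG15 change in LW was -1.02 without LW 30 °C replicate 4. The MX1 change in LW was 0.23 without LW 30 °C replicate 6 and -0.76 without LW 24 °C replicate 6.

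**Figure D2:**
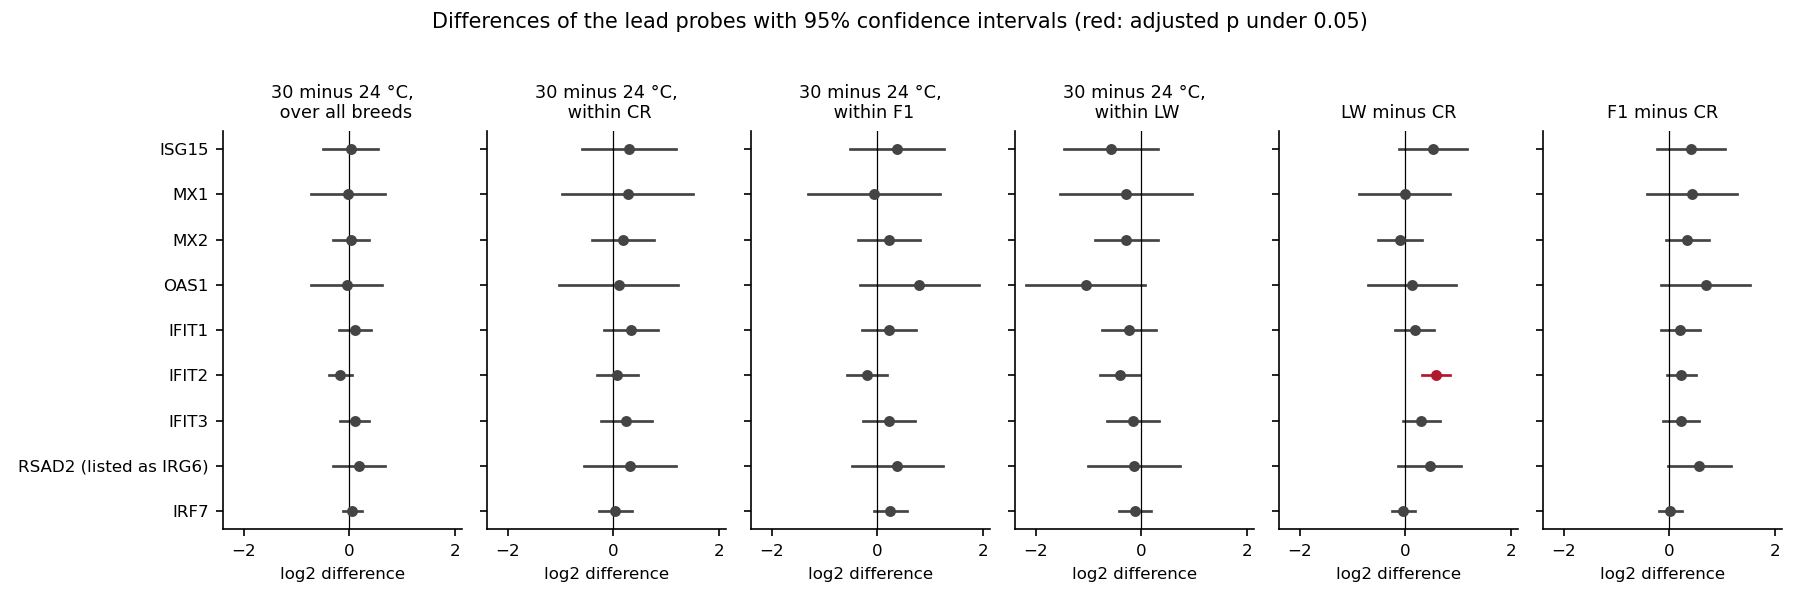
Log2 difference of each lead probe (points) with its 95% confidence interval (lines) for heat over all breeds and within each breed and for LW and F1 against CR; red marks an adjusted p under 0.05. The intervals of the heat differences include 0 except that of IFIT2 in LW (-0.78 to -0.02), and only IFIT2 between LW and CR is red, at 0.58.

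The second question was how the breeds differed. IFIT2, one of the RNA-binding IFIT proteins, was higher in LW than in CR. Its lead probe had a lowest, median and highest level of 8.64, 9.30 and 9.77 in the 12 CR pigs, 8.89, 9.52 and 9.99 in the 12 F1 pigs and 9.01, 9.86 and 10.42 in the 12 LW pigs. LW and CR overlapped, with 7 of 12 LW pigs above every CR pig and 10 of 12 above the mean of CR. The difference was 0.58 ± 0.13 on the log2 scale (SE; limma, adjusted p = 0.00319), with a 95% interval from 0.31 to 0.85. On the second IFIT2 probe shown above, CR pigs lay between 7.36 and 8.40 and LW pigs between 7.43 and 9.32, with 10 of 12 LW pigs above every CR pig. That probe differed by 0.73 ± 0.16 (limma, adjusted p = 0.0013). The IFIT2 probe of the lowest signal differed by 0.61 ± 0.13 (limma, adjusted p = 0.00118), with 9 of 12 LW pigs above every CR pig. All 3 probes were thus called in the same direction. The IFIT2 call held without each of the 36 pigs in turn, with adjusted p-values up to 0.00693.

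IFIT3, which binds IFIT1 and steadies its grip on RNA, was called on 1 of its 3 probes. On the IFIT3 probe of the lowest signal the CR pigs lay between 7.38 and 8.32 with a median of 7.64, and the LW pigs between 7.65 and 9.19 with a median of 8.25. The 2 breeds overlapped, and 11 of 12 LW pigs were above the mean of CR. This probe was 0.49 ± 0.16 higher in LW (limma, adjusted p = 0.0364), and the call was lost in 12 of the 36 fits that left out a pig, with adjusted p-values up to 0.0735. The lead IFIT3 probe differed by 0.30 ± 0.17 (limma, adjusted p = 0.258) and the second by 0.37 ± 0.17 (limma, adjusted p = 0.146).

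The other members were not called between LW and CR. ISG15 was 0.53 ± 0.31 higher in LW (limma, adjusted p = 0.294), with levels from 11.52 to 13.16 in CR and from 11.43 to 14.84 in LW. The differences were 0.18 for IFIT1, 0.12 for OAS1, -0.01 for MX1, -0.04 for IRF7 and -0.10 for MX2. The probes of OAS1 disagreed in sign, at 0.12 ± 0.41 for the lead probe and -0.34 ± 0.39 for the second. RSAD2 was 0.46 ± 0.30 higher (limma, adjusted p = 0.345). In all, 1 of 8 genes was called on its lead probe and 4 of 26 probes were called, all 4 higher in LW. Over the 46222 probes 12.9% were called between these breeds, 7.17% higher in LW, so that the share of member genes called was near the background. The median of the 8 lead probes was 0.15.

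Set apart by temperature, a split chosen after the values were seen, the breeds differed more in the pigs at 24 °C. There the lead probe of IFIT2 lay between 8.64 and 9.62 in CR and between 9.70 and 10.24 in LW. The difference was 0.82 ± 0.15 (limma, adjusted p = 0.00514; 6 pigs of each breed). ISG15 lay between 11.99 and 12.63 in CR and between 12.27 and 13.61 in LW at 24 °C, and was 0.96 ± 0.20 higher in LW (limma, adjusted p = 0.011). IFIT3 was 0.51 ± 0.14 higher (limma, adjusted p = 0.0484). These were 3 of the 8 genes, in a comparison that called 3.95% of all probes. OAS1 was 0.70 ± 0.31 higher (limma, adjusted p = 0.241) and IFIT1 0.46 ± 0.14 (limma, adjusted p = 0.0732), and MX1, MX2 and IRF7 differed by 0.27, 0.13 and 0.04. At 30 °C 0 of the 8 genes were called with limma, 0 had an unadjusted p under 0.05, and 2.16% of all probes were called. There IFIT2 differed by 0.34 ± 0.21 (limma, adjusted p = 0.492) and ISG15 by 0.10 ± 0.56 (limma, adjusted p = 0.97). Whether the breed difference depended on temperature is the interaction test above, in which none of these genes passed (IFIT2, unadjusted p = 0.204 and adjusted p = 1 by limma; ISG15, 0.251 and 1).

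On the lead probes F1 had a higher mean than both parent breeds for MX1, MX2, OAS1, IFIT1 and IRF7, and a mean between theirs for ISG15, IFIT2 and IFIT3. Against CR all 26 member probes were higher in F1, by 0.02 to 0.69, with a median of 0.29 over the lead probes. With limma 0 of 26 were called and 3 had an unadjusted p under 0.05, while 3.38% of all probes were called. OAS1 had the largest of these differences, 0.69 ± 0.41 (limma, adjusted p = 0.408), with a median level of 10.04 in CR and of 10.42 in F1 and overlapping pigs. Against LW, IFIT2 was -0.35 ± 0.13 (limma, adjusted p = 0.207) and MX2 0.44 ± 0.20 (limma, adjusted p = 0.326). There 0 of 26 probes were called with limma, 2 had an unadjusted p under 0.05, and 1.99% of all probes were called. Against the mean of both breeds 25 of 26 probes were higher in F1. With limma 0 of 26 were called, 2 had an unadjusted p under 0.05, and 0.439% of all probes were called. The lowest adjusted p there was 0.419, for MX2 at 0.39 ± 0.18. These comparisons share pigs and are not independent.

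The members varied from pig to pig within the groups, and did so together. Each lead probe was set against the mean of its group of 6 pigs and divided by the SD of these deviations, and the mean of the 8 genes was taken for each pig. LW 30 °C replicate 4 had the highest mean, 2.53, and was the highest of its group in all 8 genes. Its ISG15 level was 14.84 against a group median of 12.32. F1 30 °C replicate 6 came next, at 1.60, and was the highest of its group in 7 of 8 genes. The lowest mean was -1.48, in F1 30 °C replicate 1, which was the lowest of its group in 5 of 8 genes. CR 30 °C replicates 3 and 4 followed with -1.26 and -1.23, and LW 30 °C replicates 3 and 6 with -1.18 and -1.08. In these 4 pigs 0 of the 8 genes were above their group mean. All of the pigs named were at 30 °C, and the means ran from -0.54 to 0.50 over the 18 pigs at 24 °C and from -1.48 to 2.53 over the 18 pigs at 30 °C.

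**Figure D3:**
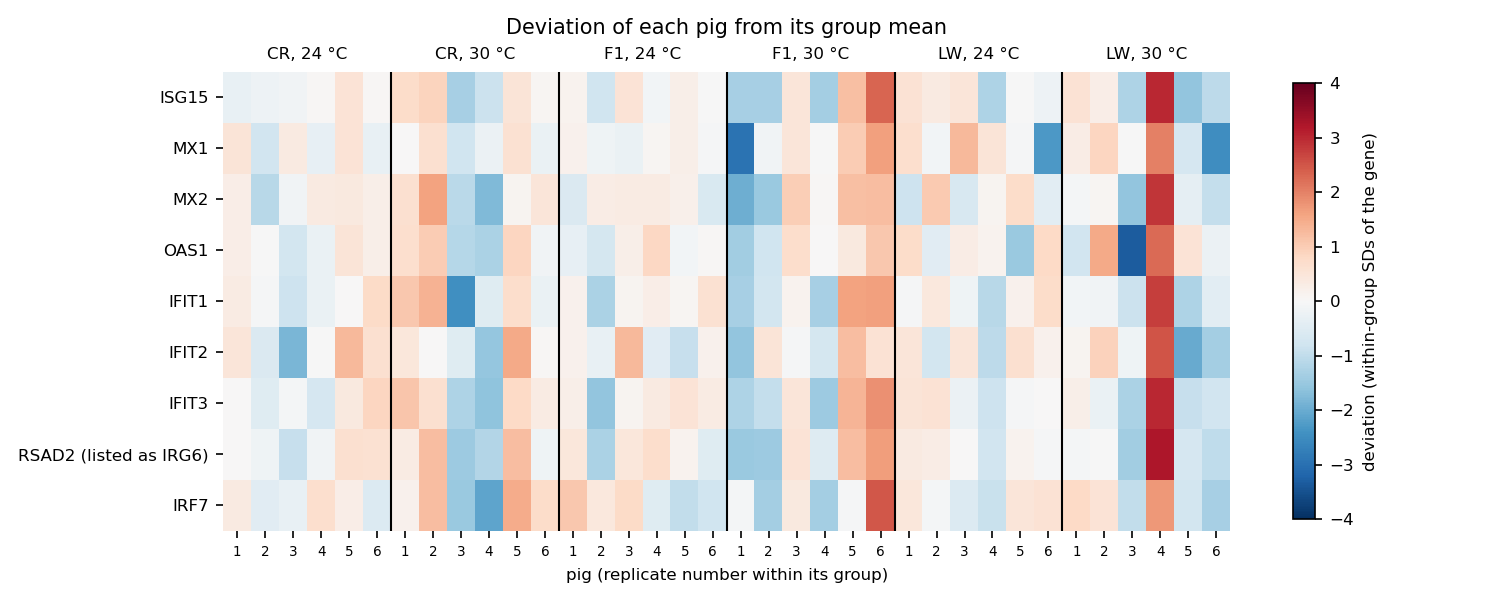
Deviation of each pig (columns, by replicate number within its group) from its group mean for each gene (rows), in within-group SDs of that gene; red is above and blue below the group mean. LW 30 °C replicate 4 is red in every row and F1 30 °C replicate 1 is blue or near white, and the columns at 24 °C are paler than those at 30 °C.

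Between pairs of the 8 genes the Pearson correlation of these deviations ran from 0.39 for MX1 with IRF7 to 0.92 for ISG15 with IFIT3, with a median of 0.63 over the 28 pairs and 36 pigs. The points share their arrays and normalisation, and the pair values are a description. Among the IFIT genes, IFIT1 and IFIT3 had a correlation of 0.90, while IFIT2 had 0.65 with each. The related GTPases MX1 and MX2 had 0.59. RSAD2 had 0.92 with IFIT3 and 0.91 with ISG15. When LW 30 °C replicate 4 was dropped, with the group means still those of all pigs, the median of the 28 pairs was 0.56. The mean of the members had a correlation of 0.14 with the share of probes well above background and of -0.03 with the median intensity of the array, and each of the 5 slides held pigs both below and above 0.

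**Figure D4:**
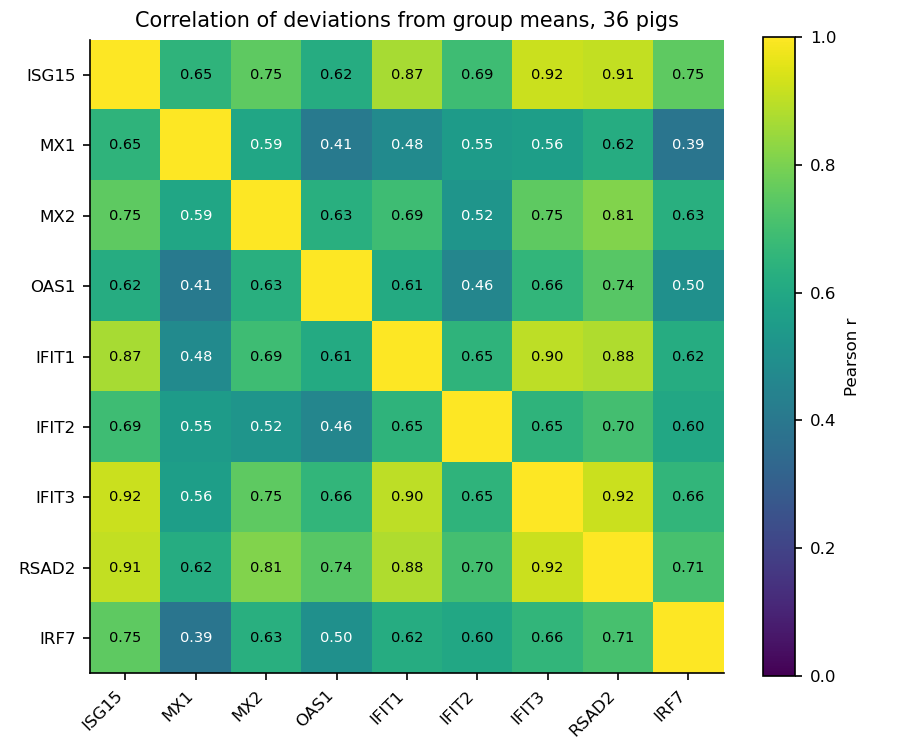
Pearson correlation over 36 pigs between the deviations of each pair of genes from their group means (rows and columns are genes, colour and number give r). ISG15, IFIT1, IFIT3 and RSAD2 form the brightest block, between 0.87 and 0.92, and the row of MX1 lies between 0.39 and 0.65.

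Among 11631 other named genes, each on its lead probe, the 10 whose deviations were most like the mean of the members over the 36 pigs were PARP14 (r = 0.95), LOC733579 (0.92), ZNFX1 (0.92), DDX58 (0.89), HERC5 (0.89), IFITM1 (0.89), IFI6 (0.89), IFIH1 (0.87), ISG12(A) (0.87) and PARP12 (0.87). In all 19 genes were above 0.8 and 158 above 0.5, and the median over the genes was 0.01. With LW 30 °C replicate 4 dropped in the same way, these 10 genes had values between 0.83 and 0.92.

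MX1 and OAS1 each had pigs that stood apart. MX1 was 10.93 in LW 30 °C replicate 6, 11.01 in F1 30 °C replicate 1 and 11.40 in LW 24 °C replicate 6, while the next lowest of the 36 pigs had 12.70. These levels were 3.08, 3.65 and 2.86 below the mean of the other 5 pigs of the group. The same 3 pigs were the lowest on all 7 MX1 probes, and they were 2.36 to 3.76 below the others over these probes, including both probes shown above. F1 30 °C replicate 1 and LW 30 °C replicate 6 were also low over the members, as given above. LW 24 °C replicate 6 was not, with a mean of -0.07, 13.04 for ISG15 and 11.39 for OAS1, the highest OAS1 level of its group. OAS1 was 6.48 in LW 30 °C replicate 3, and the next lowest pig of its group had 8.88; on the second OAS1 probe the lowest of the 36 pigs had 6.33. The 3 pigs with low MX1 were then dropped, with the group means still those of all pigs. The median of the MX1 correlations went from 0.55 to 0.56, and the correlation of MX1 with IFIT1 from 0.48 to 0.64.

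The spread among pigs was larger at 30 °C than at 24 °C for most members. The SD of ISG15 over 6 pigs was 0.22 at 24 °C and 0.67 at 30 °C in CR, 0.33 and 1.17 in F1, and 0.50 and 1.27 in LW. For IRF7 the SDs were 0.12 and 0.37, 0.22 and 0.35, and 0.15 and 0.30, and for IFIT1 0.23 and 0.59, 0.27 and 0.58, and 0.26 and 0.60. Both genes thus had the larger SD at 30 °C in each breed. In 7 of the 8 genes the SD was larger at 30 °C in all 3 breeds, the exception being IFIT2, whose SDs in CR were 0.34 and 0.32. The same held for 18 of the 26 member probes (69.2%) and for 20.9% of all tested probes. The members varied together from pig to pig, so the 8 genes are not independent cases. The ratio of the pooled SD at 30 °C to that at 24 °C had a median of 2.18 over the 8 genes. It was 1.86 over the 26 member probes and 1.11 over all tested probes. Without LW 30 °C replicate 4 these medians were 1.90, 1.58 and 1.11. A comparison of the absolute deviations from the group median, fitted over all probes with breed and temperature after the pattern had been seen, called 0% of the probes in either direction. In it 6 of the 8 genes had an unadjusted p under 0.05, with ISG15 at 0.58 ± 0.15 (limma, unadjusted p = 3.68e-04, adjusted p = 0.816), while 2077 of the 46222 probes had an unadjusted p under 0.05. No gene therefore passed the test for spread.

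**Figure D5:**
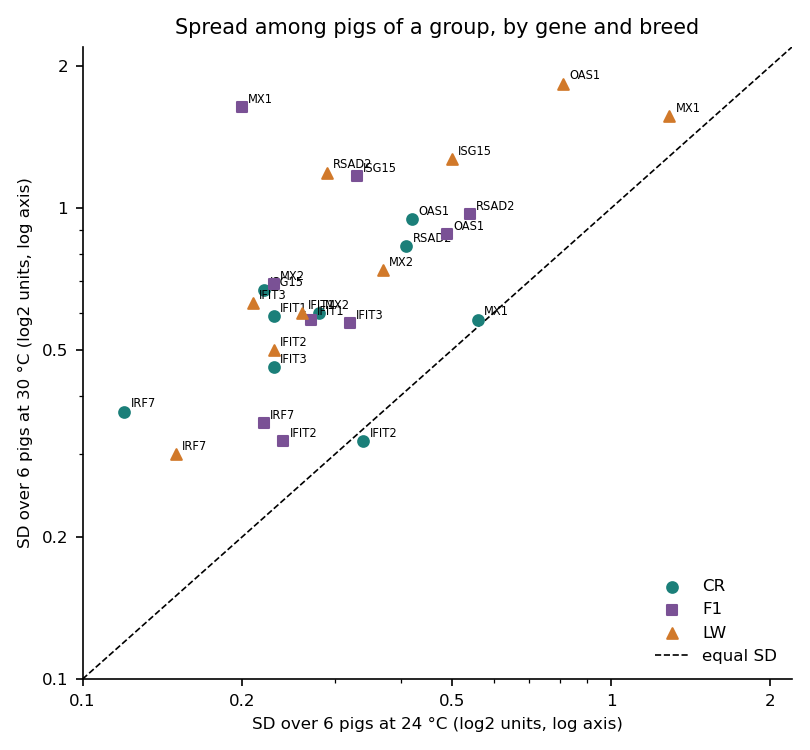
SD of each gene's lead probe over the 6 pigs of a group at 24 °C (horizontal axis) and 30 °C (vertical axis), in log2 units on log axes, with 1 point for each gene and breed. Of the points, the one for IFIT2 in CR lies below the dashed line of equal SDs, at 0.34 and 0.32, and ISG15 in F1 lies at 0.33 and 1.17.

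Markers of immune cells were set beside these patterns. The correlation of the mean deviation of a marker list with that of the members over the 36 pigs was 0.13 for T cells (6 genes), -0.13 for B and plasma cells (4), 0.08 for plasmacytoid dendritic cells (5), -0.02 for myeloid cells (7) and -0.11 for neutrophils (5), and -0.34 for both endothelium (5) and erythroid cells (4). In LW 30 °C replicate 4 the T-cell list was at -1.10 and the plasmacytoid list at 0.79 SD from the group mean. The mean level of the T-cell list ran from 7.21 to 8.15 over the pigs at 30 °C, and its highest value at 24 °C was 8.25. At 30 °C 1 of 5 neutrophil markers was called over all breeds, the granule protein BPI, at -1.68 ± 0.35 (limma, adjusted p = 0.00588). All 5 were lower, 4 of them with an unadjusted p under 0.05 by limma. Within CR, BPI was called at -2.83 ± 0.54 (limma, adjusted p = 0.00495), beside 0.387% of all probes. In F1 and in LW 0 of the 5 were called, and in LW they lay between -0.89 and 0.08. Of 4 erythroid markers over all breeds, 3 were lower and 1 higher, and HBB, a globin of red cells, was called lower (limma, adjusted p = 0.00142). All 7 myeloid markers were lower, with 0 called. Heat over all breeds called 1.18% of all probes. Between LW and CR, 0 of 6 T-cell markers were called with limma, 2 of them with an unadjusted p under 0.05, and all 6 were higher in LW, with a median of 0.21. Of 5 tested endothelial markers 4 were higher and 1 lower in LW, with 3 called higher. Of 7 myeloid markers LYZ was called lower, at -0.84 ± 0.24 (limma, adjusted p = 0.0181). Of 5 plasmacytoid markers 3 were higher and 2 lower, and TLR7 was called higher. Of 5 neutrophil markers 0 were called, and 3 had an unadjusted p under 0.05 by limma. They lay between -0.99 and 0.55. The part of these cells in the IFIT2 difference was not tested.

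The wider interferon pathway was read on the lead probe of each gene. Of 56 other interferon-stimulated genes on a list written by hand, 39 were on the array by name and 38 were tested. Heat called 0 of the 38 with limma, with 2 at an unadjusted p under 0.05; 29 were higher and 9 lower at 30 °C, with a median of 0.05. In LW 28 of the 38 were lower at 30 °C, with a median of -0.12, and in CR 35 of the 38 were higher, with a median of 0.15, while in F1 31 of the 38 were higher, with a median of 0.13. With limma 0 were called in any breed, and 1 in LW, 3 in CR and 0 in F1 had an unadjusted p under 0.05. Between LW and CR 4 of the 38 were called on their lead probe, all 4 higher in LW, and the median was 0.14. The share called is to be read against the 12.9% of all probes called between these breeds, 7.17% higher in LW, and is near it.

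The called genes of the list are given with their values. XAF1, a promoter of apoptosis, had the largest of those differences. It lay between 7.51 and 9.61 in CR, 8.71 and 10.63 in F1, and 9.31 and 11.82 in LW. It was 1.62 ± 0.25 higher in LW than in CR on the log2 scale (limma, adjusted p = 2.90e-05), called on both of its probes. That difference is 3.07-fold. In F1 it was 2.14-fold higher than in CR (limma, adjusted p = 0.00953), called on 1 of its 2 probes, so that F1 lay between CR and LW. GBP4, a guanylate-binding GTPase, lay between 8.03 and 10.67 in CR and between 9.76 and 11.06 in LW and was 0.89 ± 0.21 higher in LW (limma, adjusted p = 0.00314), although its 2 probes differed in sign. IFI44L was 0.42 ± 0.14 higher in LW (limma, adjusted p = 0.047), a call lost in 20 of the 36 fits without a pig. TRIM21, a receptor for antibody inside the cell, was 0.23 ± 0.07 higher (limma, adjusted p = 0.0199), with 2 of its 4 probes of that sign. USP18 and PARP12 were called on another probe than the lead, at 0.51 ± 0.16 and 0.33 ± 0.11. In F1 against CR, RTP4 was also called, at 0.41 ± 0.11 (limma, adjusted p = 0.033), a call lost in 5 of the 36 fits without a pig.

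Upstream genes showed mixed signs, and their counts between LW and CR, like those of the markers, stand beside the same 12.9% of all probes. Of 18 sensors and signalling genes, 0 were called by heat with limma (1 at an unadjusted p under 0.05), and between LW and CR 2 lead probes were called higher and 1 lower. TLR7, a sensor of single-stranded RNA, was 0.45 ± 0.15 higher in LW (limma, adjusted p = 0.0398) and 0.76 ± 0.15 higher in F1 than in CR (limma, adjusted p = 0.00278), on both of its probes. It was also 0.53 ± 0.13 above the mean of both breeds in F1 (limma, adjusted p = 0.0469). CGAS, a sensor of DNA in the cytosol, was 0.24 ± 0.07 higher in LW (limma, adjusted p = 0.0229). TRAF6, an adaptor of Toll-like receptors, was -0.53 ± 0.11 (limma, adjusted p = 0.00119). MYD88, MAVS, TBK1 and IRF3 were called higher in LW on a probe that was not the lead, TBK1 at 0.60 ± 0.07 against 0.12 ± 0.04 on its lead probe. For IRF3 the called probe was at 0.21 ± 0.07 and the lead at -0.08 ± 0.07, with 2 of its 4 probes of the called sign.

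Of the interferons themselves, IFNA1, IFNE and IFNG were tested, and 0 were called by heat, with 0 at an unadjusted p under 0.05. IFNE, an epithelial type I interferon, lay between 5.34 and 8.69 in CR, 5.05 and 7.70 in F1, and 5.15 and 5.73 in LW, and was -1.55 ± 0.36 in LW against CR (limma, adjusted p = 0.00299). This probe was well above background on 10 of 12 arrays of CR, 9 of 12 of F1 and 3 of 12 of LW, and it passed the filter through CR and F1, so that the level in LW lay mostly near background and the size of the difference is uncertain. Of 14 receptor and JAK-STAT genes 0 were called by heat with limma (0 at an unadjusted p under 0.05). Between LW and CR the type I receptor subunit IFNAR1 was 0.21 ± 0.05 higher (limma, adjusted p = 0.00855), while both subunits of the interferon gamma receptor were lower, IFNGR1 at -0.31 ± 0.07 (limma, adjusted p = 0.00342; 2 of its 5 probes had that sign) and IFNGR2 at -0.24 ± 0.07 (limma, adjusted p = 0.0185). JAK2 and TYK2 were called higher on a probe other than the lead. The lead probe of TYK2 had the other sign, at -0.09 ± 0.05 against 0.31 ± 0.07 on the called probe. Of 7 inhibitors 0 were called by heat (0 at an unadjusted p under 0.05), and between LW and CR the phosphatases PTPN11 and PTPN6 were called in opposite directions, at 0.27 ± 0.08 and -0.18 ± 0.06, although only 2 of the 4 PTPN6 probes had the negative sign. Of the list's PIAS members, PIAS1 was called higher on another probe than its lead, at 0.28 ± 0.06.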

How the data were processed

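Scanner files were deposited for each array and give, per the file headers, the median and mean pixel intensity of each spot, its local background and a processed intensity, made with Agilent Feature Extraction 10.10.1.1; none is scaled between arrays. The authors quantile-normalised the median intensity with limma and preprocessCore and deposited log2 values of 46097 probes, which differed from the values used here by a median of 0.00556. Here 1319 control spots per array were left out, 106 non-uniform spots were set to missing, the median intensity was quantile-normalised over 36 arrays, log2 was taken and spots of a probe were averaged. Precision is limited by the number of pigs, as arrays carry no depth. Tests covered the 46222 probes that passed the scanner's background test on 5 or more of a group's 6 arrays. Differences were fitted with limma 3.58.1 in R 4.3.3, with terms for breed and temperature or with 6 group means, over all 36 arrays, and adjusted by Benjamini-Hochberg over all tested probes; a call is an adjusted p under 0.05. The study's model also had pen, slaughter day and family, which the labels do not give. SD is over pigs and SE from the model. The fits were tested on simulated data.

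The lead probe is the tested probe of a gene with the highest mean. Named are the members, up to 5 called genes per direction of each pathway list, and the 10 genes most like the members. Members and lists were chosen with earlier results of these data known. Alternatives were 2 other scalings, a background correction, 2 filters, slide or position as a block, array weights, the deposited log2 table, the mean of a gene's probes, members found by accession, leaving out a model term and leaving out each pig. The split by temperature and the test of spread were added after seeing the data.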

Additional observations from a re-analysis of the deposited data

Results flagged for a closer look

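In groups of 6 pigs, a pig was picked out when its gap to the nearest other pig exceeded Dixon's critical share of the group's range at the 95% level. Chance alone picks about 1 in 20 groups, or 2.7 of the 54 groups searched over the 9 genes, and 7 were found. The genes were measured in the same pigs and varied together, so the 54 groups are not independent cases. These counts therefore do not test for an excess. LW 30 °C replicate 4 was high for IFIT1 (10.93, next 9.72, gap 0.718 of the range), for RSAD2 (11.01, next 8.69, gap 0.702) and for IFIT3 (11.67, next 10.55, gap 0.648). F1 24 °C replicate 2 was low for IFIT3 (9.70, next 10.38, gap 0.791) and for IFIT1 (9.27, next 9.83, gap 0.711). CR 24 °C replicate 2 was low for MX2 (7.70, next 8.18, gap 0.651), and LW 24 °C replicate 4 was low for RSAD2 (8.29, next 8.81, gap 0.649).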

How the results depend on the processing

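For heat over all breeds, heat within each breed, the interaction, and F1 against CR, LW and their mean, the count of member genes called stayed at 0 under each other scaling, filter, block or table and without each pig in turn. The lowest adjusted p among them was 0.0851, for IFIT2 in F1 against LW without LW 30 °C replicate 5. Between LW and CR the count was 1 under the same settings and without each pig, and IFIT2 differed by 0.52 to 0.65 without a pig. In the split by temperature chosen after seeing the data the count was 3 in the pigs at 24 °C and 0 in those at 30 °C. Each part of the split compared 6 pigs of each breed. IFI44L lost its call with the median scaled to the 75th percentile (0.42), with no filter (0.42) and with slide as a fixed block (0.38), and RTP4 with position on the slide as a block (0.37). The test of spread called 0 genes throughout. The labels give pigs no number that pairs them. No paired analysis was possible because replicate numbers were given in accession order and tie no pigs together. The cause of these changes was not tested.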
